A study of Mus musculus with 34 samples.

Results

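Genes for cell-surface adhesion proteins, liprins and the microtubule-binding CLASP proteins were followed through treatment of N2A cells, a mouse neuroblastoma line, with 27 small molecules, using polyA+ RNA-seq. The genes were L1cam, Chl1, Nrcam and Nfasc (the L1 family), Cdon, Ppfia1, Ppfia2 and Ppfia3 (liprins-alpha), Clasp1 and Clasp2. They are 10 of the 52661 genes in the expression table and were picked by name, with the splicing values of these same libraries known. Their exons of up to 50 nt, taken from the splicing table by gene name and length, number 30 of 8785. Of these, 21 were microexons by the limit used in the study (up to 27 nt) and 9 were longer. Enough reads, balanced between the exon's junctions where a balance score was given, were present in at least 1 library for 26 of the 30 exons. For 20 exons, in 8 genes, at least 1 compound could be set against DMSO.

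Cells had been treated for 24 h in a final 0.4% DMSO, and 34 libraries were made. DMSO alone had 3 libraries, the histone deacetylase (HDAC) inhibitors Vorinostat, CI-994, BRD6688 and BRD4884 had 2 each, and the other 23 compounds had 1 each. The study calls 17 compounds activators, namely these HDAC inhibitors, the 6 kinase inhibitors A-443654, NVP-AEW-541, Trametinib, Crenolanib, SCH-772984 and GNF-5837, and the 7 drug-like molecules BTB12021, BTB13120, RDR00572, S02045, BTBS00065, SEW06315 and RH01954. It calls 10 compounds inhibitors, namely 5-azacytidine, which blocks DNA methylation, the kinase inhibitor MK-1775, and the 8 drug-like molecules AW00693, SPB00858, JFD00822, T5635931, T5758020, T5963258, T5985871 and 1 from the ChemBridge collection, named here by its supplier. These classes rest on effects on microexons, so a direction that follows the class is a description. Doses differed between compounds, so values of different compounds stand side by side at unmatched doses. All libraries come from 1 established line, and the labels do not say whether replicates were separate cultures.

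Among genes typical of neuroblastoma, Tubb3 was at 396 RPKM, Hand2 at 248 RPKM and Stmn2 at 175 RPKM in DMSO, whereas the neurofilament genes Nefl and Nefm were at 0.01 RPKM. Markers of astrocytes, oligodendrocytes, microglia, fibroblasts and endothelial cells were at 1.93 RPKM (Mbp) or less. Junction reads over exon events numbered 33489970 to 75978445 per library, with a median of 49743250. No library repeated the values of another.

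Microexons are among the shortest exons of vertebrate genes. Most are included mainly in neurons, many under the control of the splicing factor SRRM4, and most keep the reading frame, so that inclusion adds a few amino acids to the surface of a protein. L1-family proteins are immunoglobulin-type adhesion molecules of axons that bind ankyrins through their cytoplasmic tails. Cdon is a related surface protein that acts as a co-receptor for Hedgehog ligands and associates with cadherins. Liprins-alpha are scaffolds that join receptor tyrosine phosphatases of the LAR type to presynaptic active zones, and CLASPs stabilise microtubules near their growing ends. Among the 30 exons 27 had a length that is a multiple of 3, the exceptions being a Cdon exon of 14 nt, a Clasp2 exon of 17 nt and a Clasp1 exon of 50 nt.

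The transcripts of GENCODE vM21, which are on GRCm38, held a matching exon for 24 of the 30, and all 24 were coding. Of these, 21 matched on both flanking introns and 3, among them the upstream Ppfia2 exon and the first Clasp2 exon printed here, on 1, so that their other flank may differ from the neighbour in the splicing table. The splicing table, and all coordinates given here, are on mm9. In the lines that follow the exon is in capitals, between the last 20 bases of the exon before it and the first 20 of the exon after it, from 5′ to 3′ on the strand of the gene. The L1-family exons are shown because they set the L1cam microexon of 12 nt beside its relative in Nrcam, and the Nrcam microexon of 18 nt beside that of Nfasc. They lie at chrX:71100991-71101002 (L1cam 12 nt, minus strand), chrX:71112361-71112375 (L1cam 15 nt, minus), chr12:45698769-45698780 (Nrcam 12 nt, plus), chr12:45636044-45636061 (Nrcam 18 nt, plus) and chr1:134534441-134534458 (Nfasc 18 nt, minus).
L1cam 12 nt: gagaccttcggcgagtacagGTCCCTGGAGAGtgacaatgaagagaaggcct
Nrcam 12 nt: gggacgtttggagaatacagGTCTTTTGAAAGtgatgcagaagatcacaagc
L1cam 15 nt: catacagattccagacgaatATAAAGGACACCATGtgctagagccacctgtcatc
Nrcam 18 nt: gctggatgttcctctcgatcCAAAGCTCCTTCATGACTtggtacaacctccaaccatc
Nfasc 18 nt: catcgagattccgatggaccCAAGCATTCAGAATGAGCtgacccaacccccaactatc
The 12-nt exons of L1cam and Nrcam shared 8 of 12 bases (66.7%), and 32 of 52 (61.5%) with the flanks. The 18-nt exons of Nrcam and Nfasc shared 9 of 18 bases (50%), and 35 of 58 (60.3%) with the flanks.

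The liprin exons are shown because the Ppfia1 exon of 30 nt resembles one 30-nt exon of Ppfia2 and not the other. They lie at chr7:151688772-151688801 (Ppfia1, minus strand), chr10:106296833-106296862 (Ppfia2, upstream, plus), chr10:106341873-106341902 (Ppfia2, downstream, plus) and chr7:52598923-52598949 (Ppfia3, minus).
Ppfia1 30 nt: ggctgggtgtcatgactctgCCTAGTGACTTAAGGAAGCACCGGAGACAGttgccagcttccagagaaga
Ppfia2 30 nt, upstream: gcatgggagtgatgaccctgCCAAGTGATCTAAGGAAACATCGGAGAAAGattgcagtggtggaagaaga
Ppfia2 30 nt, downstream: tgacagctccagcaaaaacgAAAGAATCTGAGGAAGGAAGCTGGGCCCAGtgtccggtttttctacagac
Ppfia3 27 nt: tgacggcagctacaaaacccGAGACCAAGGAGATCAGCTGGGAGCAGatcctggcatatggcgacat
The Ppfia1 exon shared 24 of 30 bases (80.0%) with the upstream Ppfia2 exon and 6 of 30 (20%) with the downstream one.

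The CLASP exons are shown because one microexon of 24 nt has a close relative in the other gene. They lie at chr1:120438252-120438275 (Clasp1 24 nt), chr1:120419898-120419924 (Clasp1 27 nt), chr9:113767699-113767722 (Clasp2 24 nt, first) and chr9:113787868-113787891 (Clasp2 24 nt, second), all on the plus strand.
Clasp1 24 nt: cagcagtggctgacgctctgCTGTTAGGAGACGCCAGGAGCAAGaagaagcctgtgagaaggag
Clasp1 27 nt: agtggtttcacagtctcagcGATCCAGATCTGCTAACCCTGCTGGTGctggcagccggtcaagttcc
Clasp2 24 nt, first: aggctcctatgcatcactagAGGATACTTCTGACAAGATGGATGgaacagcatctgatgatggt
Clasp2 24 nt, second: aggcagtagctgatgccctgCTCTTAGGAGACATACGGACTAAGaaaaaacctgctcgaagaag
The Clasp1 exon of 24 nt shared 17 of 24 bases (70.8%) with the second Clasp2 exon and 9 of 24 (37.5%) with the first. With the flanks the first of these pairs shared 46 of 64 bases (71.9%).

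Inclusion is given as percent spliced in (PSI), the percentage of a gene's transcripts that hold the exon, estimated from junction reads. A call of increased or decreased needed a mean PSI at least 10 above or below DMSO, together with a posterior probability, computed from the reads, above 0.95 for that direction. Over the 17 activators, 88 of 313 pairs of member exon and compound (28.1%) were called increased and 3 (0.958%) decreased, beside 3.59% and 1.33% of the pairs of all exons of up to 50 nt. Over the 10 inhibitors, 55 of 179 pairs (30.7%) were called decreased and 2 (1.12%) increased, beside 5.0% and 0.707%. The median difference from DMSO was 3.21 PSI for the members with activators and -2.98 PSI with inhibitors, and 0.0 PSI for all such exons in both classes.

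Many short exons sit near 0 or 100 PSI in DMSO, where little change is possible in one direction. Of the 20 member exons compared, 12 had a DMSO mean of 10 to 90 PSI, and of their pairs 88 of 193 (45.6%) were increased by activators and 54 of 109 (49.5%) decreased by inhibitors. All exons in that range gave 22.2% and 24.0%. In the opposite direction 3 of the 193 (1.55%) were decreased by activators and 2 of the 109 (1.83%) increased by inhibitors, beside 6.33% and 3.78% of all exons in the range. Since the genes were chosen with these values known, the shares are given side by side without a test. Each DMSO library was also set against the other 2, which called 1 of 19 member exons for library 1, 2 of 19 for library 2 and 1 of 19 for library 3, beside 0.887% increased and 0.985% decreased among all short exons for library 1, 1.05% and 1.22% for library 2, and 0.86% and 0.824% for library 3. Those calls were Cdon 14 nt (18.4 PSI higher in library 3), the first Clasp2 exon of 24 nt (-14.0 PSI in library 2) and the downstream Ppfia2 exon of 30 nt (13.7 PSI apart between libraries 1 and 2).

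Compounds differed widely in how many member exons they moved. Among activators BTB12021 gave the most increases, 9 of 18 exons compared (4.62% of all short exons), followed by GNF-5837 with 8 of 19 (4.92%). A-443654 gave 7 of 17 (4.31%), Trametinib 7 of 19 (3.95%), NVP-AEW-541 6 of 20 (3.86%), Crenolanib 6 of 17 (3.62%), RDR00572 6 of 17 (3.75%) and S02045 6 of 19 (3.82%). SEW06315 gave 5 of 18 (2.58%), RH01954 4 of 18 (2.56%) and SCH-772984 2 of 19 (1.75%). The HDAC inhibitors gave 4 of 17 for Vorinostat (4.28%), 5 of 19 for CI-994 (4.68%), 6 of 19 for BRD6688 (4.08%) and 5 of 20 for BRD4884 (4.42%). The fewest were 1 of 17 with BTB13120 (2.04%) and 1 of 20 with BTBS00065 (1.78%). A single exon was decreased by each of BTB12021 (2.84%), RDR00572 (3.86%) and BTBS00065 (0.821%).

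Among inhibitors AW00693 decreased 11 of 18 exons (7.99%), T5758020 decreased 9 of 18 (6.66%), T5635931 decreased 7 of 19 (5.38%) and T5985871 decreased 7 of 15 (9.09%). The ChemBridge molecule decreased 5 of 18 (3.44%), 5-azacytidine 5 of 18 (3.43%), T5963258 4 of 18 (3.78%), MK-1775 3 of 18 (6.18%), SPB00858 3 of 19 (2.21%) and JFD00822 1 of 18 (2.14%). JFD00822 and SPB00858 were the inhibitors that also increased an exon, 1 of 18 (0.62%) and 1 of 19 (0.561%). In 7 of the genes 10 exons passed the read filters in DMSO and in at least 20 compounds and spanned 20 PSI or more across conditions, and they are described one by one.

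**Figure D1:**
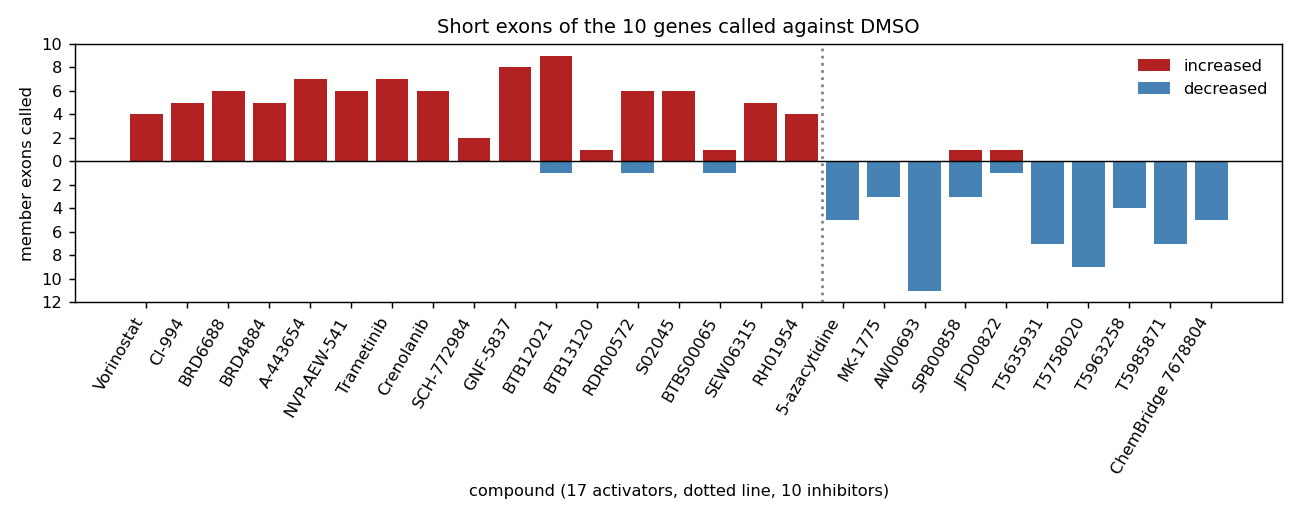
Number of member exons of up to 50 nt called increased (upward bars) or decreased (downward bars) against DMSO for each compound. The largest counts are 9 increased with BTB12021 among the 17 activators and 11 decreased with AW00693 among the 10 inhibitors.

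**Figure D2:**
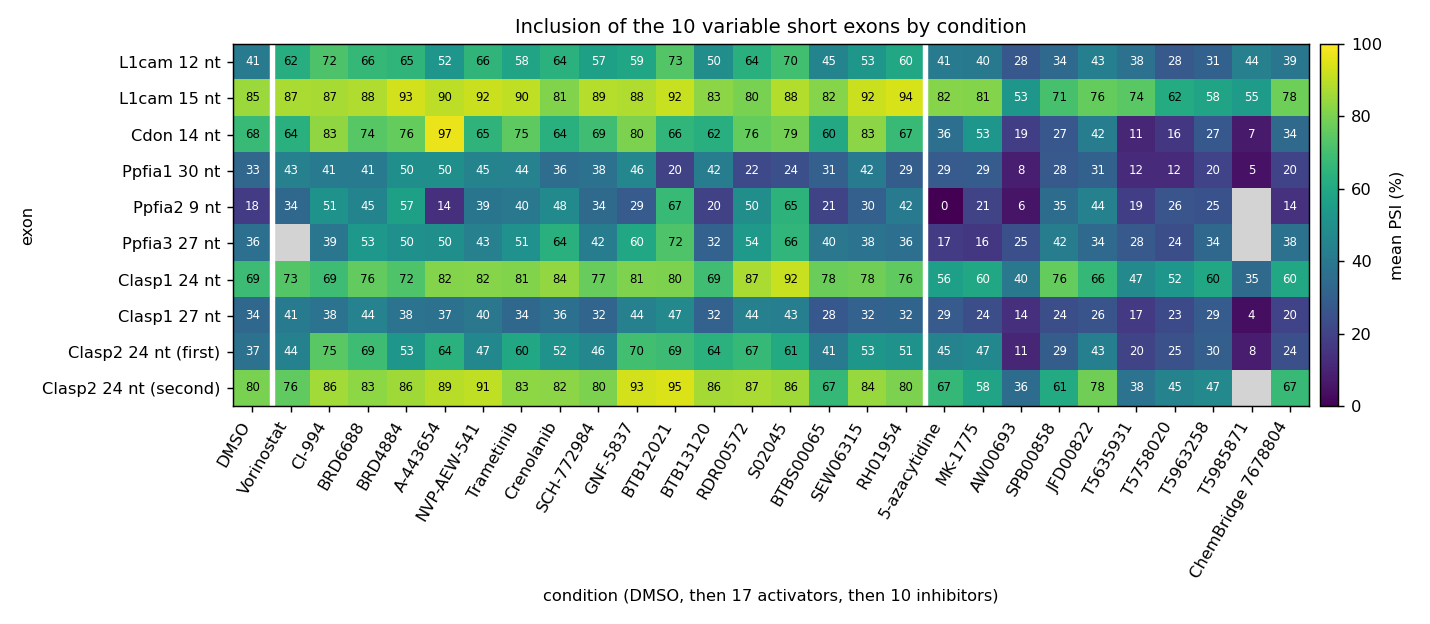
Mean PSI (%) of the 10 exons described one by one (rows) in DMSO, the 17 activators and the 10 inhibitors (columns), with grey for conditions that did not pass the read filters. Values run from 0.0 for the Ppfia2 exon of 9 nt with 5-azacytidine to 97.2 for the Cdon exon of 14 nt with A-443654.

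L1cam, the founding member of its family, had the highest expression of the 4 family genes. Its 12-nt exon (MmuEX0025978) lies in the part that encodes the cytoplasmic tail and supplies part of a signal for endocytosis. PSI in the 3 DMSO libraries was 42.5, 41.4 and 38.1 (40.7 ± 2.32, SD, n = 3). The HDAC inhibitor libraries gave 62.5 and 62.3 for Vorinostat, 73.8 and 70.5 for CI-994, 65.3 and 67.8 for BRD6688, and 67.2 and 63.4 for BRD4884. All of these libraries lay above all DMSO libraries. Over the 17 activators PSI ran from 45.0 (BTBS00065) through a median of 62.4 to 73.4 (BTB12021). No activator overlapped DMSO, and 15 of 17 were called increased, the exceptions being BTB13120 at 49.6 and BTBS00065.

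Inhibitors as a class overlapped DMSO on the same exon. Their PSI ran from 27.7 (AW00693) through a median of 38.3 to 43.5 (T5985871). AW00693 and T5758020 (28) were called decreased. T5985871 gave the lowest PSI of several other member exons, and here its 232 reads gave a 95% Wilson interval of 37.3 to 50. Such intervals cover counting error only. Between 232 and 1380 reads stood behind each library's value.

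The 15-nt exon of L1cam (MmuEX0025977) encodes residues of the extracellular part near its start, and it was mostly included before treatment. The DMSO libraries had a PSI of 80.3, 86.8 and 87.8 (85.0 ± 4.08, SD, n = 3), from 53 to 438 reads in each library of the series. Activators ran from 79.8 (RDR00572) through 88.5 to 93.8 (RH01954), overlapping DMSO, and none of 17 was called, or 1 without DMSO library 3. Inhibitors ran from 53.0 through 72.5 to 81.9, some of them within the DMSO range, and 6 of 10 were called decreased. The lowest were AW00693 at 53.0, T5985871 at 55.4, T5963258 at 58.5 and T5758020 at 61.6. Calls for the 12-nt exon thus came mainly from activators and those for the 15-nt exon from inhibitors, and their differences from DMSO lay 15.3 PSI apart on average over the 27 compounds. In DMSO the 15-nt exon began at 85.0 PSI, with less room to rise than the 12-nt exon at 40.7. Whether the contrast goes beyond these starting levels was not tested.

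Nrcam, which shares ankyrin binding with L1cam, was expressed at 3.38 RPKM in DMSO and gave few reads. Its 18-nt exon passed in 17 libraries, of which 1 was DMSO, so no call was made. PSI was 76.8 in that DMSO library, 90.5 in a BRD6688 library and 61.4 and 84.4 with CI-994. With inhibitors it was 58.7 for JFD00822, 51 for T5963258, 41 for T5635931, 24.1 for AW00693 and 14.7 for T5985871, the last from 41 reads (95% Wilson interval 6.88 to 28.4). All 7 inhibitor libraries with enough reads were below the DMSO library, which had 40 reads (95% Wilson interval 62.5 to 87.7). Activators lay on both sides of it. BTBS00065 was at 64.2, BTB12021 at 70.5 and NVP-AEW-541 at 71.8, and SCH-772984 at 77.0, SEW06315 at 80.6 and Trametinib at 81.8.

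The other Nrcam exons stayed near the ends of the scale. The 30-nt exon had a DMSO mean of 94.3 PSI and ran from 81.8 with AW00693, its one call of decreased, to 100, and without DMSO library 2 that call was lost. The 6-nt exon was at 0.0 PSI in all 34 libraries. The 12-nt exon, the relative of the L1cam exon, was at 0.0 PSI in 18 of the 21 libraries where it passed and reached 12.1 PSI, from 24 reads, in a BRD4884 library whose partner was at 0.0, while its L1cam relative was at 27.7 or more in every library. An exon of 36 nt passed in 1 BRD4884 library, at 3.34 PSI.

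Nfasc, a neurofascin of axon initial segments and nodes, was at 0.86 RPKM in DMSO, and its 15-nt exon had enough reads in 7 libraries. These were 54.2 PSI in a Vorinostat library, 69.5 and 62.1 with CI-994, 89.5 and 63.6 with BRD6688, 64.9 in a BRD4884 library and 78.8 with BTB13120. No DMSO library passed, so there is no reference for them. The exons of 18 and 45 nt were at 100 PSI wherever they passed, in 8 and 11 libraries.

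Chl1 did not carry its label: its one exon of up to 50 nt is 48 nt long, so it is no microexon by the limit of the study. The gene was listed at 0.00 RPKM in DMSO and at most at 0.15 RPKM, in CI-994, and no library had enough reads for the exon.

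Cdon gave the widest span of PSI among the exons described. Its 14-nt exon (MmuEX0010675, chr9:35283315-35283328, plus strand) has a length that would shift the reading frame within coding sequence. The exon had no match in the transcripts of GENCODE vM21, so it was not shown to be coding. PSI in DMSO was 62.0, 60.8 and 79.8 (67.5 ± 10.6, SD, n = 3), the largest spread between DMSO libraries of the 10 exons. With the HDAC inhibitors it was 60.8 and 66.1 for Vorinostat, 80.3 and 86.5 for CI-994, 78.0 and 70.3 for BRD6688, and 76.9 and 75.8 for BRD4884. Activators ran from 60.3 (BTBS00065) through 74.1 to 97.2 (A-443654, 43 reads, 95% Wilson interval 87.9 to 99.6). They overlapped DMSO, and 4 of 17 were called increased, or 9 without DMSO library 3. Each library had 28 to 266 reads for the exon.

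Each of the 10 inhibitors decreased Cdon exon inclusion, the one described exon for which this was so. Their PSI ran from 7.2 (T5985871) through a median of 27.3 to 52.6 (MK-1775), all below the lowest DMSO library. Without DMSO library 3, or with a minimum difference of 15 PSI, 9 of the 10 were called decreased. The 90 reads of T5985871 gave a 95% Wilson interval of 3.09 to 13.8. T5635931 was at 10.9, T5758020 at 16.4 and AW00693 at 18.7, and 5-azacytidine was at 36.4.

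Cdon expression stood at 4.95 RPKM in DMSO, close to the limit of 5 RPKM set for calls. It was called higher than 2-fold with T5758020 at 12.4 RPKM and AW00693 at 11.3 RPKM, which are log2 ratios of 1.24 and 1.11 on the log2(RPKM + 0.5) scale. These calls stand beside 1.14% and 2.53% of all genes. T5963258 was at 9.95 RPKM, T5635931 at 8.67 RPKM and T5985871 at 8.28 RPKM, and Trametinib was lowest at 3.37 RPKM. The 5 compounds with the most Cdon RNA are thus inhibitors with a PSI of 27.4 or less, while SPB00858, at 27.2 PSI, had 5.35 RPKM. In bulk RNA, fewer cells of a kind and less RNA per cell cannot be told apart. Expression was deposited as 1 value per condition, so it has no replicate error.

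**Figure D3:**
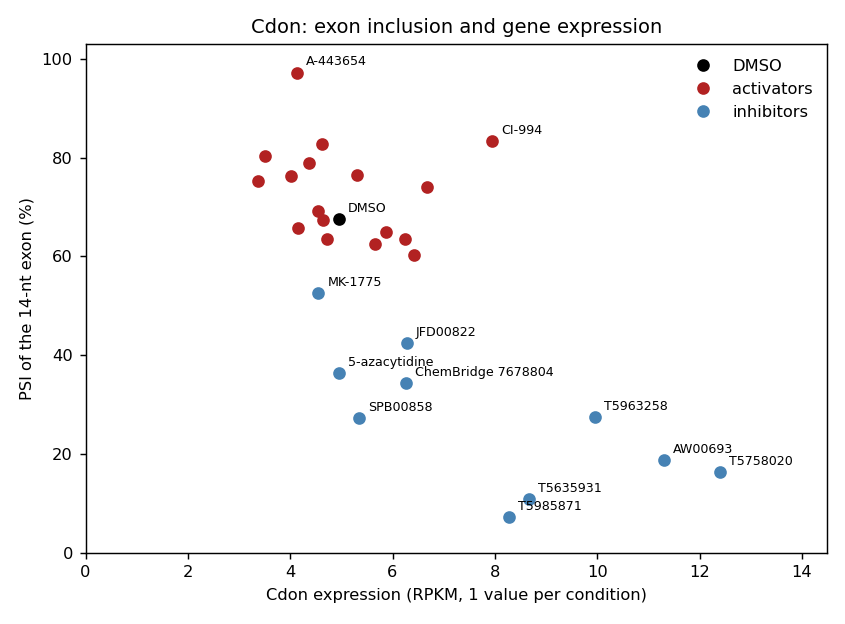
Cdon expression (RPKM, 1 value per condition) against mean PSI of its 14-nt exon (%) in the 28 conditions, coloured by class. T5758020, AW00693, T5963258, T5635931 and T5985871 lie at 8.28 to 12.4 RPKM with a PSI of 27.4 or less, and DMSO at 4.95 RPKM and 67.5.

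Ppfia1 encodes the most widely expressed liprin-alpha. Its 30-nt exon (MmuEX0036502) was read deeply, with 452 to 1317 reads per library. PSI in DMSO was 31.6, 35.4 and 32.4 (33.1 ± 2.02, SD, n = 3). The HDAC inhibitors gave 45.8 and 41 for Vorinostat, 41.2 and 41.2 for CI-994, 40.0 and 42.7 for BRD6688, and 53.0 and 46.8 for BRD4884, all above DMSO. Activators as a class overlapped DMSO on both sides, from 19.6 through a median of 41.4 to 49.9.

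For this exon activators moved in both directions. Increases were called for Vorinostat, BRD4884, A-443654 (49.9), NVP-AEW-541 (44.9), Trametinib (44.2) and GNF-5837 (46.3). Decreases were called for BTB12021 at 19.6 (95% Wilson interval 17 to 22.7) and RDR00572 at 22.2 (19.3 to 25.3). S02045 was at 24.4, below every DMSO library, without a call. Inhibitors ran from 4.77 (T5985871) through 20.2 to 30.9, all below the lowest DMSO library, and 6 of 10 were called decreased, AW00693 reaching 8.37.

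A second Ppfia1 exon, of 27 nt (MmuEX0036499, chr7:151674596-151674622, minus strand), had enough reads in 17 compounds. In DMSO its PSI was 25.2, 24.2 and 25.2. BTB12021 raised it to 44.6 and RDR00572 to 43.0, the compounds that lowered the 30-nt exon, and NVP-AEW-541 raised it to 37.0. AW00693 lowered it to 8.47 and T5985871 to 4.16, as they did the 30-nt exon. In total 3 of 8 activators were called increased and 2 of 9 inhibitors decreased. The differences of the 2 exons from DMSO lay 9.53 PSI apart on average.

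Ppfia2 encodes a liprin-alpha found mainly in brain, and its 9-nt exon (MmuEX0036510, chr10:106319792-106319800, plus strand) was low before treatment. PSI in DMSO was 15, 21.6 and 15.8 (17.5 ± 3.56, SD, n = 3). The HDAC inhibitors gave 18.8 and 48.6 for Vorinostat, 48.2 and 53.7 for CI-994, 48.4 and 41.8 for BRD6688, and 60.8 and 52.6 for BRD4884. The Vorinostat libraries, 29.8 PSI apart, were the most unlike pair among the described exons, and the first of them lay within the DMSO range. Activators ran from 13.9 (A-443654) through 40.0 to 67.4 (BTB12021), and 14 of 17 were called increased.

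Inhibitors did not share a direction on that exon. JFD00822 raised it to 43.9 and SPB00858 to 35.2, the only increases of a member exon by inhibitors. With 5-azacytidine it was called decreased at 0.0 from 16 reads, of which none held the exon, and the 95% Wilson interval reached 19.4. That call was lost without DMSO library 2. AW00693 was at 5.78 without a call, the median was 20.7, and T5985871 had too few reads. Reads per library ran from 16 to 199.

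The downstream Ppfia2 exon of 30 nt (MmuEX0036509) was mostly included, at 87.6 and 73.9 PSI in the DMSO libraries that passed. Activators ran from 86.3 to 100, overlapping the higher DMSO library. Of 16, 11 were called increased, or 3 without DMSO library 2 and all 16 without library 1. The 3 inhibitors with enough reads ran from 79.7 to 89.0 with no call. The upstream exon, the relative of the Ppfia1 exon, had too few balanced reads in every library.

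Ppfia3, a liprin-alpha of neurons, was at 3.44 RPKM in DMSO, and its 27-nt exon (MmuEX0036514) had 26 to 147 reads per library. The DMSO libraries gave 38.3, 30.1 and 40.9 PSI (36.4 ± 5.63, SD, n = 3). Activators ran from 31.6 (BTB13120) through 49.9 to 72.4 (BTB12021), overlapping DMSO, and 9 of 16 were called increased. S02045 reached 66.0, Crenolanib 63.6 and GNF-5837 59.7. Inhibitors ran from 16.4 through 27.8 to 42.3, also overlapping, and 4 of 9 were called decreased. The lowest were MK-1775 at 16.4 and 5-azacytidine at 17.2. Without DMSO library 1 or 3 there were 2 decreases.

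**Figure D4:**
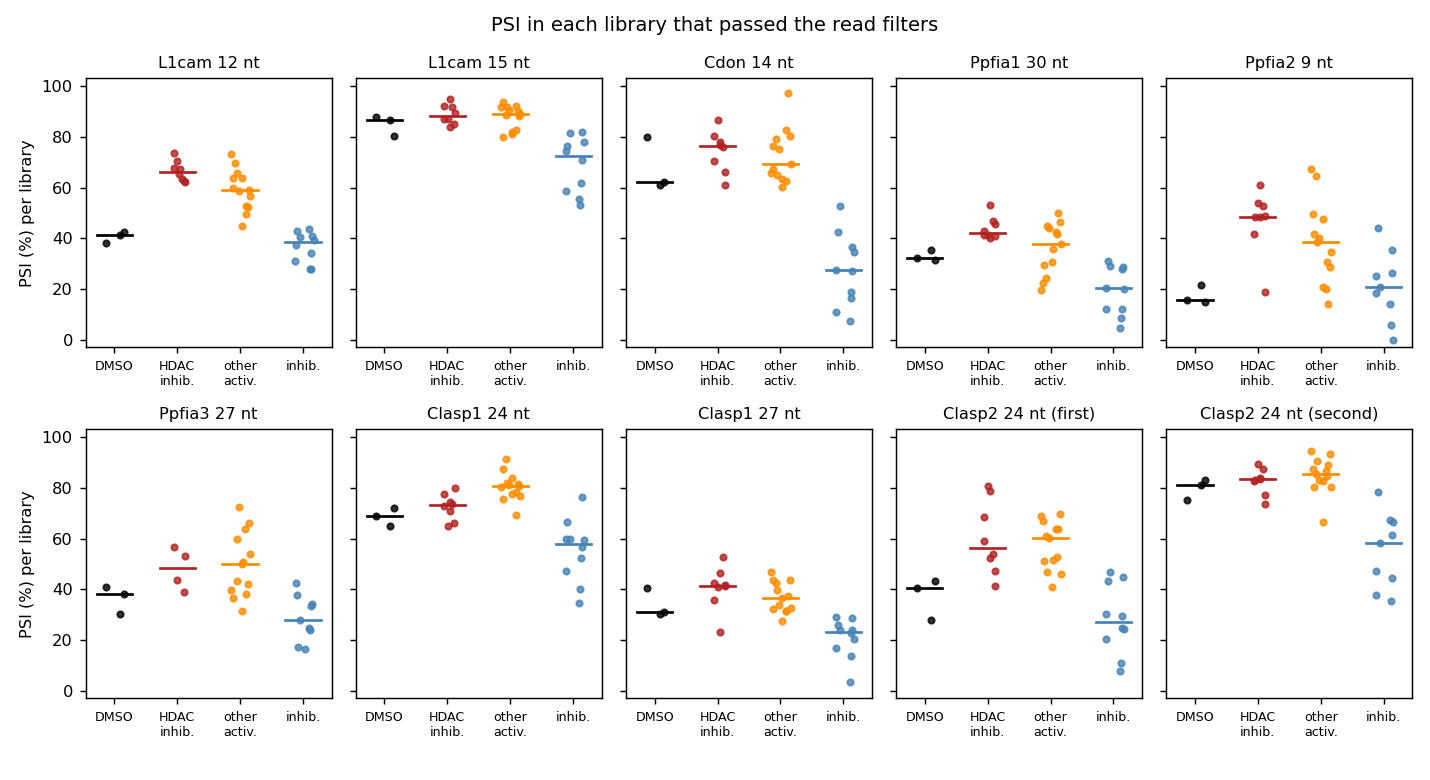
PSI (%) of the 10 exons described one by one in each library, as points, for DMSO, the HDAC inhibitors, the other activators and the inhibitors, with a line at the median of each group. For L1cam 12 nt every activator lies above the DMSO values of 38.1 to 42.5, and for Cdon 14 nt every inhibitor lies below the lowest DMSO value of 60.8.

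Clasp1 and Clasp2 encode proteins that bind growing microtubule ends. The Clasp1 exon of 24 nt (MmuEX0011507) had a PSI of 72.0, 65.1 and 68.9 in DMSO (68.7 ± 3.46, SD, n = 3). The HDAC inhibitors stayed near these values, with 66.3 and 79.9 for Vorinostat, 72.8 and 64.8 for CI-994, 74.2 and 77.4 for BRD6688, and 70.9 and 73.7 for BRD4884, and none was called. Activators ran from 68.8 (CI-994) through 78.4 to 91.5 (S02045), and 8 of 17 were called increased, among them all the kinase inhibitors but SCH-772984. Inhibitors ran from 34.6 (T5985871) through 58.0 to 76.2 (SPB00858), with 5 of 10 called decreased, or 8 without DMSO library 2. Reads per library ran from 99 to 506.

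The relative of that exon in Clasp2, the second of its 24-nt exons (MmuEX0011532), began higher. Its DMSO values were 82.9, 80.9 and 75.2 PSI (79.7 ± 3.96, SD, n = 3). Activators ran from 66.6 (BTBS00065) through 85.6 to 94.6 (BTB12021), with 3 of 17 called increased (NVP-AEW-541, GNF-5837 and BTB12021) and BTBS00065 called decreased. Inhibitors ran from 35.5 (AW00693) through 58.4 to 78.5, and 8 of 9 were called decreased, T5635931 at 37.9 and T5758020 at 44.6 among them. Differences from DMSO lay 9.63 PSI apart on average between these exons over 26 compounds.

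The first Clasp2 exon of 24 nt (MmuEX0011514) was increased by more activators than the second. PSI in DMSO was 43.4, 27.9 and 40.4 (37.2 ± 8.21, SD, n = 3). The HDAC inhibitors gave 47.0 and 41.1 for Vorinostat, 68.4 and 80.8 for CI-994, 78.8 and 59.2 for BRD6688, and 52.4 and 53.7 for BRD4884. Activators ran from 40.7 (BTBS00065) through 60.1 to 74.6 (CI-994), overlapping DMSO. Of 17, 13 were called increased, or 15 without DMSO library 1 or 3 and 11 without library 2. Inhibitors ran from 7.75 (T5985871) through 27.1 to 46.7 (MK-1775), with 5 of 10 called decreased, or 3 without DMSO library 1 and 7 without library 2. The 24-nt exons of Clasp2 lay 16.7 PSI apart on average in their differences from DMSO. In DMSO the second exon began at 79.7 PSI, with less room to rise than the first at 37.2. Whether their contrast goes beyond these starting levels was not tested.

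The Clasp1 exon of 27 nt (MmuEX0011506) had calls that depended on the DMSO library left out. DMSO values were 30.9, 30.2 and 40.3 PSI (33.8 ± 5.64, SD, n = 3). The BRD4884 libraries gave 23.3 and 52.7, on either side of DMSO, while those of CI-994 gave 35.7 and 40.8. Activators ran from 27.6 through 38.0 to 46.9, and 2 of 17 were called increased (BRD6688 and BTB12021), or 1 without DMSO library 1 or 2 and 6 without library 3. Inhibitors ran from 3.52 (T5985871, 125 reads, 95% Wilson interval 1.25 to 7.94) through 23.3 to 29.1, all below the lowest DMSO library, and 5 of 10 were called decreased, or 7 without DMSO library 1 or 2 and 4 without library 3.

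The remaining CLASP exons spanned at most 13.1 PSI in condition means, which the ranges that follow give. A Clasp1 exon of 3 nt (MmuEX0011503) was at 97.4 to 100 PSI, and the Clasp2 exon of 3 nt, which has the same 3 bases, was at 89.3 to 100. Another 3-nt exon of Clasp1 was at 0.0 PSI in all 34 libraries. A further Clasp1 exon of 24 nt (MmuEX0011499) ran from 1.14 to 14.2, the Clasp1 exon of 48 nt from 2.02 to 12.5 and the Clasp2 exon of 17 nt from 0.53 to 4.77. A Clasp1 exon of 50 nt and a Clasp2 exon of 18 nt had too few balanced reads in every library. At the limit of 50 nt, that Clasp1 exon was just inside, at 100 PSI in all libraries before the read filters. Exons of Clasp2 (0.0 to 0.73 PSI, no library passing) and Nfasc (1.75 to 9.38 PSI in 8 libraries), both of 51 nt, were just outside.

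For each described exon, the exons of up to 50 nt with the most similar differences from DMSO were listed by mean absolute difference in PSI over the compounds both passed in, as a description. The Ppfia2 exon of 9 nt was nearest to the L1cam exon of 12 nt (9.12 PSI over 26 compounds, against its own mean change of 18.9). The Cdon exon was nearest to the second Clasp2 exon of 24 nt (9.57 PSI, own mean change 20.2). The other nearest exons lay outside these genes. They were a 36-nt exon of Fat1 for L1cam 12 nt (6.03 PSI), an 18-nt exon of Kif1b for L1cam 15 nt (3.83), a 24-nt exon of Nrbp1 for Ppfia1 30 nt (5.24) and a 12-nt exon of Lphn2 for Ppfia3 (6.77). For the CLASP exons they were a 6-nt exon of Rundc1 for Clasp1 24 nt (5.13), a 27-nt exon of Git1 for Clasp1 27 nt (4.07), a 24-nt exon of Slc38a10 for the first Clasp2 exon (6.55) and a 12-nt exon of Scyl2 for the second (4.7).

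Expression of the member genes was called changed in few pairs. Over 156 pairs of gene and compound above 5 RPKM in either condition, 9 (5.77%) were more than 2-fold higher than DMSO and 1 (0.641%) lower, beside 2.67% and 3.86% of the pairs of all genes. After centring each compound on the median of all genes, which lay between -0.44 (CI-994) and 0.00 on the log2 scale, the split was 12 higher and 0 lower.

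L1cam was at 42.4 RPKM in DMSO. It was called higher with Vorinostat at 106 RPKM (log2 ratio 1.31, beside 10.4% of all genes) and CI-994 at 90.7 RPKM (1.09, beside 10.2%), and was at 71.6 RPKM with BRD6688 and 65.7 RPKM with BRD4884. Its RPKM lay above DMSO in 16 of 17 activators and in 1 of 10 inhibitors, and was lowest with T5985871 at 21 RPKM. Nrcam was called higher with Trametinib at 8.53 RPKM (1.22, beside 1.53%). Nfasc was called higher with CI-994, at 12.7 RPKM from 0.86 (3.28).

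Ppfia2 stood at 8.59 RPKM in DMSO and was called higher with the kinase inhibitors Trametinib at 21.8 RPKM (1.29), Crenolanib at 19.1 RPKM (1.11, beside 1.84%) and GNF-5837 at 18.9 RPKM (1.09, beside 3.57%). It was called lower with T5985871 at 3.77 RPKM (-1.09, or -0.89 after centring, beside 8.41%). Ppfia1 (27.7 to 49.3 RPKM), Clasp1 (15.9 to 41.4 RPKM) and Clasp2 (21.9 to 56 RPKM) had no call in any compound. Ppfia3, at 1.17 to 4.63 RPKM, and Chl1 were under the limit for calls throughout.

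**Figure D5:**
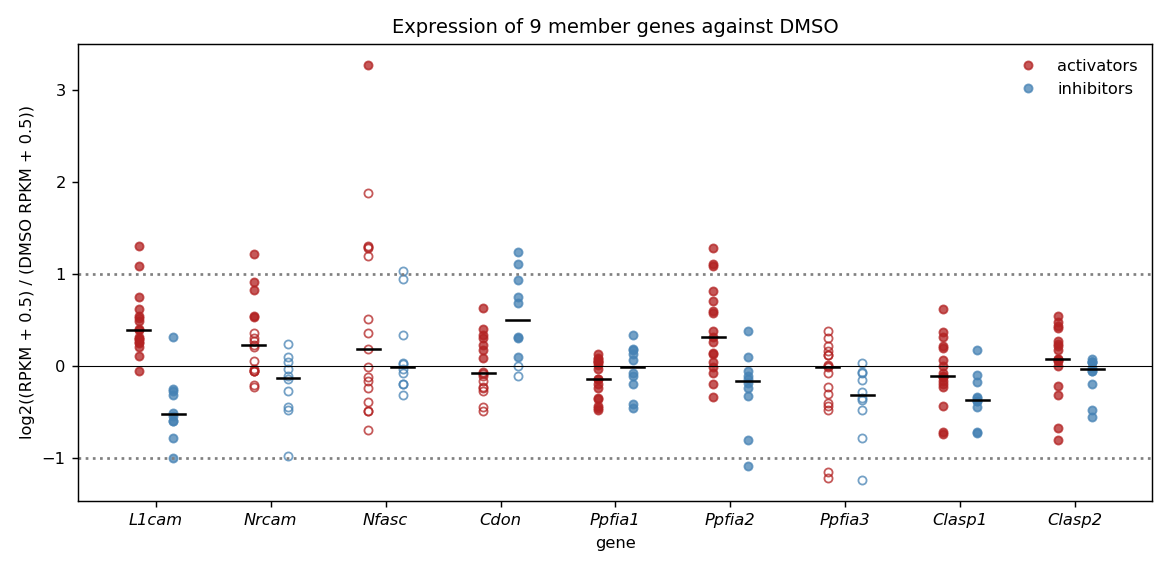
Log2 ratio of RPKM to DMSO, on the log2(RPKM + 0.5) scale, for 9 of the genes in each compound, with a bar at the median. Filled points are above 5 RPKM in either condition, open points are not, and dotted lines mark 2-fold. L1cam reaches 1.31 with Vorinostat, Nfasc 3.28 with CI-994 and Ppfia2 -1.09 with T5985871.

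Partners of these proteins were taken from lists of 61 genes: ankyrins and other binding partners of the L1 family, active-zone and phosphatase partners of liprins, microtubule plus-end proteins, and Hedgehog and cadherin partners of Cdon. In DMSO 38 of them were above 5 RPKM. With CI-994, 7 of 42 partners tested were higher and 4 lower (10.2% and 26.1% of all genes), and with Vorinostat 4 of 41 were higher and 6 lower (10.4% and 22.5%). With BRD6688 4 of 40 were higher (5.14%), and with BRD4884 3 of 41 were higher and 1 lower (5.29% and 4.42%). With Trametinib 1 of 39 was lower (1.86%), and with T5985871 4 of 38 were lower (8.41%).

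Among partners, Ncan, a proteoglycan that binds L1-family proteins, went from 1.38 RPKM to 10.9 RPKM with CI-994. Rims2, of the active zone, went from 31.8 RPKM to 6.09 RPKM with Vorinostat and 12.9 RPKM with T5985871. Kif2c, a microtubule depolymerase, went from 39.2 RPKM to 5.48 RPKM with Vorinostat, while Mapre3, an end-binding protein, went from 1.99 RPKM to 13 RPKM. Gli1, a Hedgehog target, went from 0.06 RPKM to 8.35 RPKM with CI-994.

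The partner genes held 58 exons of up to 50 nt that could be compared, in 26 genes. Increases were called for 9 of 58 with BRD6688 (4.08% of all short exons), 8 of 56 with BRD4884 (4.42%), 6 of 55 with Vorinostat (4.28%), 4 of 56 with CI-994 (4.68%), 5 of 56 with Trametinib (3.95%) and 5 of 57 with RDR00572 (3.75%), which also decreased 2 (3.86%). AW00693 decreased 12 of 57 (7.99%) and increased 1 (0.631%), and T5985871 decreased 14 of 53 (9.09%) and increased 2 (1.31%). A 39-nt exon of Spag9 rose from 35.2 PSI to 78.4 with CI-994. A 24-nt exon of Ckap5, which like CLASPs acts at microtubule ends, fell from 44.7 PSI to 11.6 with T5985871, and a 6-nt exon of Clip1, a CLASP-binding protein, from 79.1 PSI to 45.9. A 3-nt exon of Ncam1 went the other way with an activator, from 66.6 PSI to 33.8 with Vorinostat, its 1 decrease among the 55 (1.18% of all short exons).

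Longer exons and other kinds of splicing of the member genes changed in few pairs. Of 1788 pairs with exons over 50 nt, activators increased 23 and decreased 12, beside 0.612% and 0.758% of all such pairs, and of 1032 pairs inhibitors increased 3 and decreased 16, beside 0.404% and 1.2%. Alternative 3′ splice sites gave 9 increases and 9 decreases in 451 activator pairs (0.852% and 0.845%) and 4 of each in 264 inhibitor pairs (0.898% and 0.904%). Alternative 5′ splice sites gave no call in 327 activator and 194 inhibitor pairs. Among all such pairs 1.07% were increased and 1.07% decreased with activators, and 1.2% and 1.21% with inhibitors. Retained introns gave 19 increases and 3 decreases in 3461 activator pairs (0.469% and 0.205%) and 10 and 2 in 1971 inhibitor pairs (0.458% and 0.159%).

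Some of these events moved by 20 PSI or more. A Clasp1 exon of 108 nt, at 19.6 PSI in DMSO, rose to 47.9 with Crenolanib, 45.7 with GNF-5837, 44.9 with BTB12021, 44.4 with S02045, 41.1 with CI-994 and 40.3 with RDR00572. A Nrcam exon of 156 nt fell from 77.8 PSI to 42.6 with Crenolanib, 54.5 with Vorinostat, 56.6 with GNF-5837 and 55.6 with T5985871. A Ppfia3 exon of 82 nt fell from 94.4 PSI to 65.2 with AW00693 and 73.1 with MK-1775. At an alternative 3′ splice site of Ppfia3, use of one acceptor fell from 86.1 PSI to 53.9 with RDR00572 and 63.6 with S02045, and that of another rose from 10 PSI to 42.3 and 36.4. In Ppfia2, use of an acceptor fell from 77.1 PSI to 48.6 with T5985871. A Ppfia3 intron rose from 0.98 PSI to 29 with CI-994, at 1.19 RPKM of the gene.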

How the data were processed

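PolyA+ RNA-seq of N2A cells gave 34 libraries. PSI values were deposited as percent per library by the authors, who ran vast-tools on mm9 junctions, beside a quality score string with the junction reads behind each value. Expression was deposited by the authors as RPKM, 1 value per condition, with Salmon (version 0.10.2 in the submitters' processing notes) and edgeR named. Columns holding the authors' own comparisons (fold changes, p-values and splicing calls) were not used, and 0 value columns lacked a condition. No counts per library were used, so no count model was fitted.

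A PSI was kept where its coverage and junction balance passed the quality scores (introns needed 15 reads and a balance p above 0.05). Outside introns, a PSI with no balance score was kept on coverage alone. Means over libraries were set against DMSO, with 4000 draws per exon and library from the reads, for a posterior probability above 0.95 and a difference of at least 10 PSI. On simulated data in the layout of CI-994, 200 of 200 exons changed by 30 PSI were recovered among 2557, with 2 false calls in 2357. Libraries of a condition were drawn from a single PSI, so spread between libraries was left out. These simulated counts cover read sampling only and give no rate of false calls for the real libraries. Expression calls needed 2-fold, with 0.5 RPKM added and more than 5 RPKM in either condition. Exons described one by one passed in at least 20 compounds and spanned at least 20 PSI. Exons of similar pattern had to pass in at least 24 compounds. Wilson intervals are 95% and cover counting error. Python 3.11.15, numpy 2.4.6, pandas 2.3.3, statsmodels 0.14.6 and matplotlib 3.10.9 were used. Compound names and classes came from the study. The genes, exons and lists were chosen with earlier results of these data known, so no tests are given. Some marker genes are not reported here.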

Additional observations from a re-analysis of the deposited data

How the results depend on the processing

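Of 313 activator pairs of member exon and compound, 88 were increased and 3 decreased. With a minimum difference of 15 PSI these became 56 and 0, and with exons of up to 27 nt alone the decreases became 1. Leaving out 1 DMSO library at a time gave 76 to 100 increases and 2 to 4 decreases with activators, and 59 to 61 decreases and 2 to 5 increases with inhibitors (2 increases with all libraries, 5 without DMSO library 1). Leaving out 1 HDAC inhibitor library gave 85 to 87 increases and 3 to 4 decreases. In a further setting, both libraries of an HDAC inhibitor had to differ by at least 10 PSI from the DMSO library of the same letter. Other activators kept the main rule, and there were 83 increases and 3 decreases in 298 pairs. The replicate letters share only a name: the difference between the libraries A and B of DMSO correlated at -0.06 to 0.05 with that of each HDAC inhibitor, across exons. Only better-covered exons, no balance filter and a rule without reads kept all 4 counts within 1.5 times. Of 241 counts recomputed for single exons, 213 did too. Those of the Ppfia1 exon of 27 nt and the 30-nt exons of Ppfia2 and Nrcam were added after seeing the data. In the cases where counts moved, the cause was not tested.

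Expression calls of the members, 9 higher and 1 lower, became 15 and 4 with a limit of 1 RPKM or no limit, 12 and 0 after centring, and 21 and 12 with a fold limit of 1.5. With 0.1 RPKM added, 2 were lower. Depth limits the exons of Nrcam, Nfasc, Ppfia2 and Ppfia3, which had as few as 15 reads in a library. It also limits the Cdon exon, with as few as 28. Of the compounds, 23 have 1 library, so their spread between cultures is unknown.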
